A study of Homo sapiens with 3 samples.

Results

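The miR-130, miR-301 and miR-454 family was described in small RNA libraries from MV4-11, an established cell line of human acute myeloid leukemia. In this line the receptor kinase FLT3 has an internal tandem duplication (FLT3-ITD), and the fusion protein MLL-AF4 is present. Members were taken by name, as every listed hairpin among hsa-mir-130a, hsa-mir-130b, hsa-mir-301a, hsa-mir-301b and hsa-mir-454 and every listed arm of them, whatever their level. This gave 4 of 661 hairpins and 7 of 783 mature miRNA names. hsa-mir-130a was not analysed here. The cells had received an empty vector (EV) lentiviral CRISPR-Cas9 construct, without a guide against a gene, and were grown for 2 weeks. The labels give their genotype as WT and describe 3 replicate cultures, which form 1 group, so there is no treated or control group and the comparisons below are between arms, members and libraries. The labels do not say whether the cultures were infected separately, so the spread between them may be technical.

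A hairpin is cut into a short duplex, and an Argonaute protein usually keeps one strand of it, called the 5p or the 3p arm by its position in the hairpin. The kept strand finds messenger RNAs mainly through its seed, bases 2 to 8, so arms with one seed share most predicted targets while the opposite arms of a hairpin have different ones. The family is known through its 3p arms, which repress PPARG in vascular cells, and miR-130a is known in blood for its decline as megakaryocytes form. MIR301A and MIR454 lie in introns of SKA2, whose protein binds spindle microtubules at the kinetochore.

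The mature sequences are shown because the seed, more than the hairpin, sets which members can act on the same targets. They are from RefSeq (GRCh38.p14), which held a sequence for 7 of the 7 listed arms, and capitals mark the seed. The arm listed as hsa-miR-301b is hsa-miR-301b-3p in RefSeq. The 4 arms from the 3' side share the seed AGUGCAA. The 3 arms from the 5' side each have a seed found in no other of the RefSeq sequences used here. That set covered 683 of 783 mature names and is not complete, so other human arms may have these seeds.
miR-130b-3p: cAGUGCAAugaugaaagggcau
miR-301a-3p: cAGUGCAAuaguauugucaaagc
miR-301b: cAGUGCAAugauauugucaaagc
miR-454-3p: uAGUGCAAuauugcuuauagggu
miR-130b-5p: aCUCUUUCccuguugcacuac
miR-301a-5p: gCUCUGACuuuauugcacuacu
miR-454-5p: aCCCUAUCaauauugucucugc

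Beyond the seed the 3p arms diverged. Compared from base 1 without gaps, miR-301a-3p and miR-301b differed at 2 of 23 positions, by A10G and G11A from the first to the second, with positions counted from the 5' end. The other 5 pairs of 3p arms differed at 9 to 12 positions. How the counting treated a read that falls on either of 2 nearly identical arms is not given in the sources used here, so the split of reads between miR-301a-3p and miR-301b is less certain than the other values.

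The 4 hairpins lie at 2 places in the genome (GRCh38, GENCODE release 29, matched by name). On chromosome 22, MIR301B (chr22:21652981-21653058, plus strand) lies in an intron and MIR130B (chr22:21653304-21653385, plus strand) in an exon of the processed transcript AP000553.1, with 245 bases between them. On chromosome 17, MIR301A (chr17:59151136-59151221, minus strand) and MIR454 (chr17:59137758-59137872, minus strand) lie in introns of SKA2 (chr17:59109951-59155269, minus strand), with 13263 bases between them. miR-301a-3p and miR-301b, the arms most alike in sequence, are thus from different places.

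The libraries held 12694823, 10991953 and 11682129 mature counts in replicates 1, 2 and 3. Spearman's rho between libraries across mature names was 0.940 to 0.974, with replicates 2 and 3 the closest pair. Replicate 1 stood apart, since the median of 330 mature miRNAs with at least 100 counts in every library was lower there by 0.46 on the log2 scale of FPKM + 1. Counts of each member are therefore given for every library. Of the markers of white blood cells, 6 of 6 were listed with a summed FPKM of 1432948, 2483258 and 2580485, lowest in replicate 1, and miR-150-5p was the lowest at 26.3 to 85.6 FPKM. Of 11 markers of other cell types 11 were listed, and none was at 0 in any library. Each listed row had reached 10 counts in at least 1 library, so values above 0 say little here. miR-451a was the lowest of the 11 in each library, at 37.5 to 104 FPKM. The summed FPKM of the 11 was 363599 to 458687. The neural marker miR-9-5p made up most of that sum, at 315690 to 373276 FPKM. The cultures are of a cell line, so a marker's name does not show that cells of its type were present. The part of other cells in the values below was not tested, and in bulk RNA fewer cells of a type and less RNA per cell cannot be told apart.

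The listed family members took a small part of the miRNA counts in these libraries. The 7 arms took 0.107%, 0.119% and 0.130% of mature counts in replicates 1, 2 and 3, with a mean of 0.119% ± 0.0115 (SD, n = 3). Their Wilson 95% intervals were 0.106% to 0.109%, 0.117% to 0.121% and 0.128% to 0.132%, which did not meet, and which cover counting error only, because reads copied by PCR were not marked. The 4 hairpins took 0.108%, 0.120% and 0.132% of hairpin counts, a second count of the same reads.

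The makeup of this total differed between libraries. The 3p arms with the shared seed took 0.0273%, 0.0563% and 0.0615% of mature counts, and the 5p arms took 0.0801%, 0.0631% and 0.0689%. Replicate 1 thus had the lowest 3p share and the highest 5p share. Within the family, the arms with the shared seed made up 25.5% of counts in replicate 1, 47.1% in replicate 2 and 47.1% in replicate 3. In each library, more family reads came from the 5p arms, which do not carry the seed that defines the family.

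Levels of arms were compared as FPKM, which divides the count by feature length and library total. miR-130b-5p was the highest arm, with 8864, 5845 and 6645 counts, or 34905, 26582 and 28434 FPKM. It ranked 93 of 783 mature names, with a mean of 29974 ± 4370 FPKM (SD, n = 3), and replicate 1 was its highest library. It was 2.63 times the next arm, miR-454-3p, by their means and above it in 3 of 3 libraries.

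Among the arms with the shared seed, miR-454-3p was the highest. It had 2109, 3036 and 3630 counts, or 7550, 12552 and 14121 FPKM, and ranked 131 at a mean of 11408 ± 3432. miR-130b-3p had 682, 1376 and 1702 counts, or 2558, 5960 and 6936 FPKM. miR-454-3p was 2.21 times miR-130b-3p by their means and above it in 3 of 3 libraries, by more than the larger SD. Library by library the ratio was 2.95, 2.11 and 2.04, widest in replicate 1.

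The miR-301 arms came after these. miR-301b had 432, 1264 and 1257 counts, or 1546, 5226 and 4890 FPKM. Its mean of 3887 ± 2034 FPKM was below that of miR-130b-3p, at 5151 ± 2299, by less than either SD, so the order of these neighbours was not resolved although miR-130b-3p was the higher in 3 of 3 libraries. miR-301a-3p had 248, 510 and 590 counts, or 888, 2109 and 2295 FPKM, and was the lowest seed-bearing arm in each library. miR-301b was 2.20 times miR-301a-3p by their means, a difference of 2124 FPKM against a larger SD of 2034.

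The remaining 5p arms were far below miR-130b-5p, and fairly even across libraries in deposited FPKM. miR-301a-5p had 928, 775 and 1007 counts, or 3480, 3357 and 4104 FPKM. miR-454-5p had 371, 314 and 402 counts, or 1391, 1360 and 1638 FPKM. Neither was resolved from the arm just above it, since miR-301b and miR-301a-5p changed places in replicate 1, as did miR-301a-3p and miR-454-5p. miR-301a-5p was above miR-301a-3p in 3 of 3 libraries, with a ratio of means of 2.07.

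**Figure D1:**
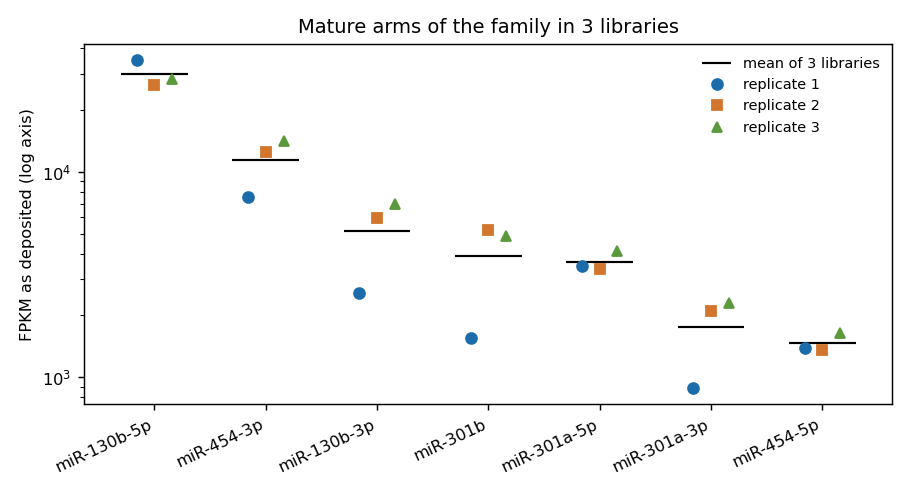
Deposited FPKM of the 7 listed arms on a log axis, with a point for each of the 3 libraries and a bar at their mean, ordered by the mean. For miR-454-3p, miR-130b-3p, miR-301b and miR-301a-3p replicate 1 lies below the other libraries, and for miR-130b-5p it lies above them.

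The hairpin totals gave a partly different order. hsa-mir-130b had 9547, 7222 and 8347 counts and ranked 96 of 661 hairpins at 8715 ± 591 FPKM (SD, n = 3). hsa-mir-454 followed with 2484, 3350 and 4034 counts and 2466 ± 676 FPKM. hsa-mir-301a had 1251, 1354 and 1695 counts and 1434 ± 273 FPKM. hsa-mir-130b was above hsa-mir-454, and hsa-mir-454 above hsa-mir-301a, in 3 of 3 libraries and by more than the larger SD. hsa-mir-301b had 522, 1355 and 1355 counts and 1210 ± 589 FPKM, and its order against hsa-mir-301a was not resolved. hsa-mir-130b led by its 5p arm, whereas hsa-mir-454 led among the arms with the shared seed.

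**Figure D2:**
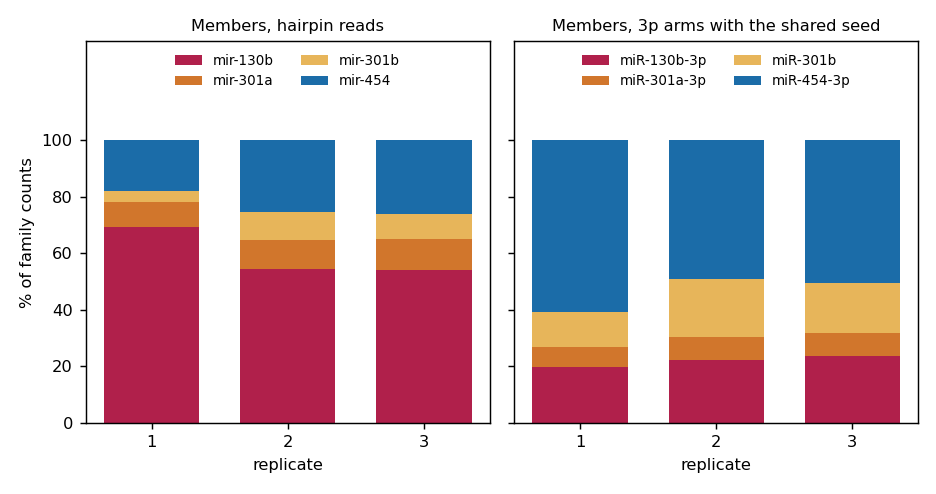
Share of each member in the family's counts, in percent, stacked for each library. At left are hairpin reads, where hsa-mir-130b holds 69.2%, 54.4% and 54.1% in replicates 1, 2 and 3, and at right the 3p arms with the shared seed, where miR-454-3p holds 60.8%, 49.1% and 50.6%.

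Arm preference in reads was the comparison that a test could address, since each library measures both arms of a hairpin. Ligation and PCR favor some sequences, and pairing the arms within a library does not remove this. The hairpins of miR-130b and miR-301a gave more 5p than 3p reads, and that of miR-454 gave more 3p than 5p reads, in 3 of 3 libraries each. miR-130b-5p was 13, 4.25 and 3.90 times miR-130b-3p in counts. miR-301a-5p was 3.74, 1.52 and 1.71 times miR-301a-3p. miR-454-3p was 5.68, 9.67 and 9.03 times miR-454-5p.

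As a share of both arms, the 3p reads of miR-130b were 7.14%, 19.1% and 20.4% in replicates 1, 2 and 3, with a Wilson 95% interval of 6.64 to 7.68 for replicate 1 and lower bounds of 18.2 and 19.5 for the others. Those of miR-301a were 21.1% (18.9 to 23.5), 39.7% (37.0 to 42.4) and 36.9% (34.6 to 39.3). The intervals of replicate 1 did not meet those of the other libraries for either hairpin. For miR-454 the 3p share was 85.0% (83.6 to 86.4), 90.6% (89.6 to 91.6) and 90.0% (89.1 to 90.9), again lowest in replicate 1. Across libraries the ranges of the 3 hairpins did not overlap, although the highest value of miR-130b and the lowest of miR-301a lay close together, at 20.4% and 21.1%.

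**Figure D3:**
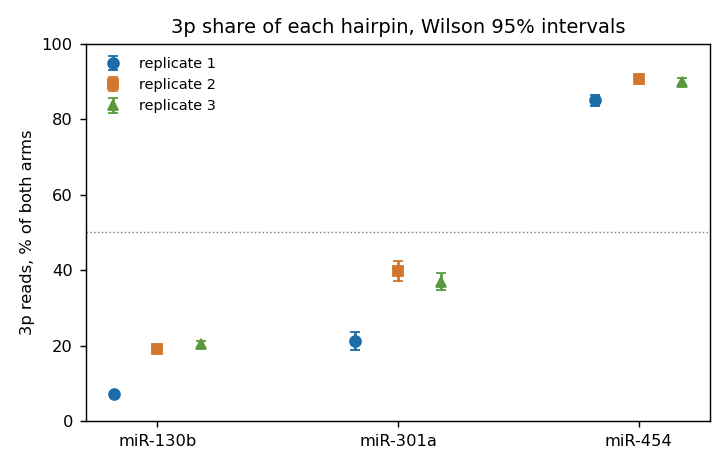
Reads of the 3p arm in percent of both arms for the 3 hairpins with both arms listed, with a point for each library and its Wilson 95% interval. The dotted line is at 50%, and miR-130b and miR-301a lie below it and miR-454 above it in each library.

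The log2 ratio of 3p to 5p counts was fitted over 196 hairpins with both arms listed, by edgeR's quasi-likelihood test with the library as a block, and a call needed a Benjamini-Hochberg adjusted p under 0.05 and a log2 ratio of at least 1 in size. The ratio was -2.57 (SE 0.434, edgeR adjusted p = 0.00237) for miR-130b, -1.09 (SE 0.359, adjusted p = 0.0333) for miR-301a and 2.99 (SE 0.296, adjusted p = 0.000237) for miR-454. All 3 tested hairpins of the family were called, 1 toward 3p and 2 toward 5p. A call was the usual outcome, made for 82.1% of the pairs, with 41.3% called toward 3p and 40.8% toward 5p. The count of the family is therefore near the background, and what sets its members apart from each other is their direction. Ordered from the most 5p to the most 3p, miR-130b was in place 56, miR-301a in place 84 and miR-454 in place 147 of 196. miR-301b was not in this test, since 1 arm was listed.

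The preference of miR-301a was the least secure. Its log2 ratio stayed below 0 in each setting tried, but the call was lost under TMM factors, edgeR's trimmed-mean scaling of each arm column (-0.42, adjusted p = 0.374), which moved the median ratio of all pairs from 0.34 to 1.01, without the replicate block (-0.98, adjusted p = 0.0556), and on leaving out any one library. Without replicate 1 its ratio was -0.69 (adjusted p = 0.00281, under the size threshold), without replicate 2 it was -1.34 (adjusted p = 0.0926) and without replicate 3 it was -1.25 (adjusted p = 0.0502). The calls of miR-130b and miR-454 held in each of these settings, with log2 ratios of -2.89 to -1.90 and 2.84 to 3.64.

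**Figure D4:**
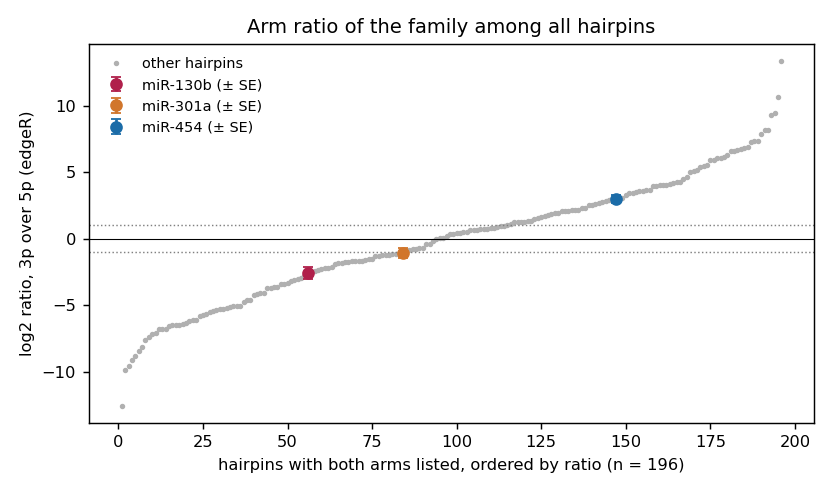
Log2 ratio of 3p over 5p counts from edgeR for 196 hairpins with both arms listed, ordered by the ratio, with the 3 members in color and bars for ± SE. Dotted lines mark the size a call needs, and miR-301a lies at the lower line, at -1.09.

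Replicate 1 differed from the other libraries by arm. On the log2 scale of FPKM + 1, replicate 1 minus the mean of replicates 2 and 3 was -1.33 for miR-130b-3p, -1.31 for miR-301a-3p, -1.71 for miR-301b and -0.82 for miR-454-3p. For the 5p arms it was 0.34 for miR-130b-5p, -0.09 for miR-301a-5p and -0.10 for miR-454-5p. The median of the 330 miRNAs was -0.46, with quartiles of -1.02 and -0.02, so the 4 seed-bearing arms lay below this median and the 3 others above it. miR-454-3p alone among the 3p arms was within the quartiles. After scaling by median of ratios, the 3p arms were still lowest in replicate 1, and the 5p arms were each highest there, with miR-130b-5p at 43767, 24013 and 24136 scaled FPKM, miR-301a-5p at 4364, 3032 and 3483, and miR-454-5p at 1745, 1229 and 1391. In deposited FPKM, where the median miRNA was lower too, white blood cell markers were lower in replicate 1 as well, by unlike amounts. miR-142-3p was at 209151, 676033 and 701152 FPKM and miR-223-3p at 91627, 279634 and 321370. The most abundant of these markers, miR-155-5p, differed less, at 957982, 1158581 and 1186121. The part in the family's values of what moved these markers was not tested. With 1 library on one side, these differences allow no test.

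**Figure D5:**
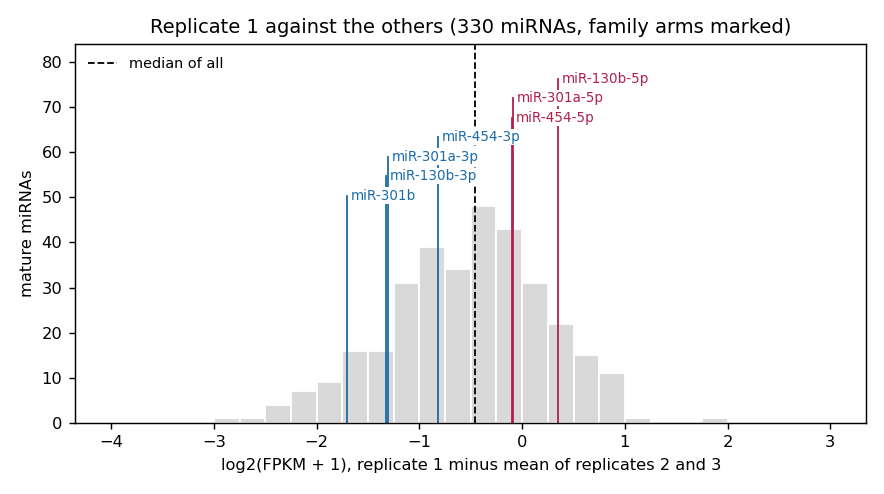
Histogram over 330 mature miRNAs of the log2(FPKM + 1) difference between replicate 1 and the mean of the other libraries, with family arms marked, 3p arms in blue and 5p arms in red. The dashed line is the median of all, at -0.46, with the 3p arms to its left and the 5p arms to its right.

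The same values can be put as arm ratios within hairpins, which is not a further observation of the shift. The 3p to 5p log2 ratio in replicate 1 minus the mean of the other libraries was -1.67 for miR-130b, -1.21 for miR-301a and -0.72 for miR-454. Over 148 pairs with at least 10 counts of each arm in every library the median shift was -0.07, with quartiles of -0.62 and 0.79. The shift of the 3 hairpins was thus toward 5p beyond the lower quartile, whereas the median pair moved little. A ratio within a library does not depend on its total.

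The spread of the 3p arms between libraries rested mostly on replicate 1. The coefficient of variation of FPKM over the 3 libraries was 44.6% for miR-130b-3p, 43.3% for miR-301a-3p, 52.3% for miR-301b and 30.1% for miR-454-3p, and 10.4% to 14.6% for the 5p arms. The median of 258 mature miRNAs with at least 248 counts in every library, the lowest count of any member, was 24.8%. Without replicate 1 it was 10.7%, 5.99%, 4.70% and 8.32% for these 3p arms in the same order, and 4.76% for miR-130b-5p, 14.2% for miR-301a-5p and 13.1% for miR-454-5p, so the 3p arms no longer stood above the 5p arms. After scaling all 3 libraries by median of ratios the arms also came nearer to each other. The 3p arms were then at 29.5%, 28.4%, 40.8% and 12.0%, and the 5p arms at 37.1%, 18.7% and 18.1%, against a median of 21.2%. Poisson counts alone would give 1.19% to 5.25% for the 7 arms. miR-301b had the highest value of the 7 arms over 3 libraries on both scales, and the lowest without replicate 1.

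The 2 clusters held different parts of the family. hsa-mir-130b with hsa-mir-301b took 72.9%, 64.6% and 62.9% of the family's hairpin counts in replicates 1, 2 and 3. Of counts with the shared seed the same cluster took 32.1%, 42.7% and 41.2%. The chromosome 17 cluster, hsa-mir-301a with hsa-mir-454, thus gave the smaller part of hairpin reads and the larger part of seed-bearing reads in each library.

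Neighbours within a cluster were uneven. The log2 ratio of hsa-mir-130b to hsa-mir-301b in hairpin FPKM was 4.12, 2.34 and 2.55, with a mean of 3.00 ± 0.97 (SD, n = 3). For the 3p arms alone, miR-130b-3p to miR-301b, it was 0.73, 0.19 and 0.50, with a mean of 0.47 ± 0.27. These hairpins, 245 bases apart, were therefore uneven in total reads and much nearer in seed-bearing reads.

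In the chromosome 17 cluster it was the reverse. The log2 ratio of hsa-mir-454 to hsa-mir-301a was 0.57, 0.88 and 0.83 in hairpin FPKM, with a mean of 0.76 ± 0.17. It was 3.09, 2.57 and 2.62 for miR-454-3p to miR-301a-3p, with a mean of 2.76 ± 0.28. The hairpin value depends on length, since MIR454 spans 115 bases and MIR301A 86, and in counts it was 1.18 ± 0.17. In both clusters and each library the same hairpin was the higher on each of these scales.

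Nearly all hairpin reads of hsa-mir-130b and hsa-mir-454 were in their listed arms. Outside them were 1, 1 and 0 reads of hsa-mir-130b, where 0 of 8347 allows a share of up to 0.0359% (3 counts of the total), and 4, 0 and 2 reads of hsa-mir-454, where 0 of 3350 allows up to 0.0896% by the same limit. hsa-mir-301a had 75, 69 and 98 reads outside its arms, or 6.0%, 5.10% and 5.78%. Its neighbour in name, hsa-mir-301b, had 90, 91 and 98, or 17.2%, 6.72% and 7.23%. The number of these hsa-mir-301b reads was even across libraries while its listed arm was lowest in replicate 1. Where they lie on the hairpin is not given by the counts. Among hairpins with at least 300 counts over the 3 libraries, 145 with 2 arms listed had a median share outside the arms of 0.0705%, with quartiles of 0.00796% and 0.411%. The 101 with 1 arm listed had a median of 1.35%, with quartiles of 0.118% and 28.8%. The shares of hsa-mir-301b, which has 1 arm listed, lay within these last quartiles in each library.

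By seed, the listed members were a minor group in these libraries, with hsa-mir-130a not analysed here and so not in the shares below. RefSeq gave a sequence for 683 of 783 mature names, which held 93.2% of counts and 582 different seeds. AGUGCAA ranked 66 of these by mean share, and 79, 63 and 62 in replicates 1, 2 and 3. The seed of miR-130b-5p, CUCUUUC, ranked 63 by its mean share of 0.0600%. This single arm had 8864 counts against 3471 of the 4 seed-bearing arms together in replicate 1, but 5845 against 6186 in replicate 2 and 6645 against 7179 in replicate 3. It was thus the higher in replicate 1 and the lower in the other libraries. RefSeq lists miR-3666 and miR-4295 with the family's seed as well, which were not analysed here.

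Seeds that hold 6 of these 7 bases in a row, but at other positions than in the family, were far more abundant. The seeds CAGUGCA of the miR-148 arms and GUGCAAA of miR-19b-3p thus do not line up base by base with AGUGCAA. The highest arms whose first 8 bases hold AGUGCA or GUGCAA were miR-148a-3p, miR-148b-3p and miR-19b-3p, at 2633077 ± 947897, 308944 ± 39419 and 105135 ± 61241 FPKM (SD, n = 3), and 5 names outside the family did so in all. Of the 2370 human mature sequences from RefSeq used here, 13 hold AGUGCA in their first 8 bases (0.549%). In the same set 8 hold GUGCAA (0.338%) and 6 hold the whole AGUGCAA (0.253%). The set is not complete, so these counts are not those of all human miRNAs. miR-148a-3p, miR-148b-3p and miR-152-3p, with the seed CAGUGCA, together had 306, 103 and 76.5 times the counts of the family's seed in replicates 1, 2 and 3. The gap was thus widest in replicate 1, where miR-148a-3p was at its highest and the family's 3p arms at their lowest. The shared letters are a description and say nothing of shared targets in these cells.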

How the data were processed

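Total RNA of 3 MV4-11 EV cultures was isolated on miRNeasy columns, and small RNA libraries were prepared with a New England Biolabs kit and sequenced on a HiSeq 2000. Read counts over miRBase release 21 were deposited by the authors for mature miRNAs and for hairpins, not normalized. The FPKM deposited beside them is the authors' count over length and library total, with a length that for the 7 arms is 1 base below that in RefSeq. The submitters' processing notes name Novoalign 2.08.03 and the builds hg19 and mm10, with no role given. Settings and trimming are not given in the sources used here. In the mature table each row reached 10 counts in at least 1 library, and 55 names with several rows were summed. Ligation and PCR favor some sequences, so levels of different arms are not molar ratios.

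Arm ratios were tested with edgeR 4.0.16 in R 4.3.3 on counts, with the library total as the size of both arm columns, and the code was tested on simulated data. The pairing is from the design, since both arms come from one library. DESeq2 1.42.0, limma 3.58.1 (pseudocount 1 or 10), TMM factors, filters, no size threshold and leaving out each library were alternatives. Other values are descriptions, because a sign-flip test of 3 libraries cannot go below p = 0.25 (exact, two-sided). Neighbours in an order were called resolved where the means differed by more than the larger SD and 3 of 3 libraries had the same order. Named miRNAs were the members, those with 6 of the 7 seed bases (the 3 highest) and, for each 3p arm, the 2 nearest profiles over the libraries. The members and lists were chosen with earlier results of these data known.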

Additional observations from a re-analysis of the deposited data

How the results depend on the processing

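Of 185 alternative values of 33 results, 160 were judged the same, 20 moved beyond a tolerance, 5 lost the call and 0 changed sign. The tolerance was 1 SD between libraries, or 1.5 times for counts of calls and coefficients of variation, so values with a wide SD could move far within it. Arm log2 ratios were judged by direction and call alone, with no tolerance on their size. Under TMM factors that of miR-130b went from -2.57 to -1.90 and that of miR-454 from 2.99 to 3.64, and both count as the same. The 5 lost calls were those of miR-301a, where 2 of 3 family hairpins stayed called. Without the replicate block 162 pairs were called against 161 with it, and 2 family hairpins, and no other call of the family changed. TMM factors gave 95 calls toward 3p and 72 toward 5p, against 81 and 80. All pairs called numbered 124 to 169 over the settings, 124 of them from the 148 pairs left by the filter on low counts.

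The family share was 0.0484% for 3p arms alone and 0.167% with miR-21-5p left out of the total, both by construction. In summed FPKM the hairpin share was 0.107%, as hairpins differ in length. The cluster ratios (log2) became 0.47 for miR-130b over miR-301b and 2.76 for miR-454 over miR-301a in 3p arms, and 1.18 for the second in counts. The median coefficient of variation of the 7 arms, 30.1%, was 8.32% to 42.9% on leaving out 1 library, and lowest without replicate 1, when the 3p arms no longer stood above the 5p arms in it. An FPKM computed with the full RefSeq length, chosen after seeing the data, moved no level by more than its SD. With 3 libraries and 1 group, differences below the SD between libraries could not be resolved.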

Other observations

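For each seed-bearing arm the 2 nearest profiles outside the family were found, by root mean square distance of log2(FPKM + 1) over 3 libraries, among 323 miRNAs with at least 100 counts in every library. The distance was taken on the levels themselves, so miRNAs of like abundance come out as near. Nearness also rests on 3 points that share libraries and depth, and says nothing of shared function or control.

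miR-130b-3p was nearest to miR-502-3p (distance 0.0307), at 2471, 6020 and 6875 FPKM, and to miR-362-5p (0.179), both from the X-linked miRNA cluster in CLCN5. miR-301a-3p was nearest to miR-26b-3p (0.0633), at 915, 1966 and 2290 FPKM, and to miR-574-3p (0.150). miR-454-3p was nearest to miR-17-3p (0.113), at 7133, 14185 and 14247 FPKM, and to miR-4518 (0.159). miR-301b had no neighbour as near, with miR-642a-5p at 0.285 and miR-106a-5p at 0.338.

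Duplex strands whose 5' end is richer in A and U are known to be kept more often. In the first 5 bases, miR-130b-5p had 3 A or U and miR-130b-3p 2, miR-454-3p had 3 and miR-454-5p 2, and the arms of miR-301a had 2 each. Over 163 pairs with sequences, 126 had unequal numbers and the higher arm had more in 80 (63.5%). Whether these bases bear on the arm ratios of the family was not tested.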
